A study of Caenorhabditis elegans with 12 samples.

Results

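The mRNA populations bound to FLAG-tagged CEY-1 and to FLAG-tagged CEY-2 were compared directly, in 4 of the 12 RNA immunoprecipitation (IP) libraries of a study of C. elegans Y-box proteins. The 4 libraries were identified by their labels, and the comparison and gene lists were chosen with earlier results of these data known. They are 2 FLAG IPs of the strain that carries FLAG-CEY-1, called CEY1 here, and 2 FLAG IPs of the strain that carries FLAG-CEY-2, called CEY2. Strain CEY1 carries rrrSi300, in which the cey-1 promoter and the cey-1 3′ UTR flank a singly FLAG-tagged cey-1 reading frame. Strain CEY2 carries rrrSi233, which has the promoter, reading frame and 3′ UTR of cey-2 in those places. Both transgenes continue through an operon linker into a nuclear GFP-H2B reporter with a PEST sequence and the tbb-2 3′ UTR, and both carry unc-119(+) as marker gene. All animals were whole young adults, grown on OP50 bacteria from hatched L1 larvae. MYC IPs of the same 2 strains, 2 libraries each, were the study's controls and are given beside the results. The strain CEY4, whose FLAG-CEY-4 is driven by the dpy-30 promoter, is used only to place the values of some genes.

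Y-box proteins bind mRNA in the cytoplasm through a cold-shock domain and are among the most abundant proteins of messenger ribonucleoprotein particles. They are known for packaging mRNAs and for affecting their stability and translation, in germ cells above all. In C. elegans, CEY-1 is made in many tissues of the soma and in the germline, whereas CEY-2 and its close relative CEY-3 are germline proteins. Each tagged protein was thus made where its own promoter and 3′ UTR drive it, and the tissue in which a tagged protein meets an mRNA and its preference for that mRNA cannot be told apart in this comparison.

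The FLAG libraries held 28600967 and 22915137 counts with CEY1, against 28940989 and 33529549 with CEY2, so that 1 CPM stood for 21.4 to 35.98 counts. CPM are counts scaled to a common library size, with a trimmed-mean (TMM) correction for composition. The MYC libraries were several times shallower, with 4713239 and 6666476 counts for CEY1 and 3605114 and 3353523 for CEY2. The 2 replicates of each strain correlated with r of 0.999 across genes on the log2(CPM + 1) scale, and they differed by more than sampling noise (chi-square per gene 2.98 with CEY1 and 3.22 with CEY2), so each was counted as a sample. Whether the replicates are separate cultures is not stated in the labels, and all p-values here therefore reflect a spread between libraries that may be technical. Markers of the tissues of an adult hermaphrodite were present in both strains, among them cbd-1 of oocytes, gld-1 of the germline, vit-6 of the intestine, unc-54 of body wall muscle and myo-2 of the pharynx. The coelomocyte marker unc-122 lay near 0 in all 4 libraries, and the coelomocyte marker cup-4, the intestinal esterase gene ges-1 and the neuronal gene rab-3 averaged under 1 CPM in both strains.

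The mRNA populations of the 2 FLAG IPs differed across most of the transcriptome. Of 11643 genes tested, 9438 (81.1%) were called at an adjusted p under 0.05 by edgeR's quasi-likelihood test, 4618 of them (39.7%) higher and 4820 (41.4%) lower with CEY1. At a fold change of at least 2, 2827 genes (24.3%) were higher and 2502 (21.5%) lower. With TMM scaling, large differences lay more often on the CEY1 side. Past 4-fold stood 1140 higher and 545 lower genes, past 8-fold 405 and 139, and past 16-fold 127 and 58. With total-count scaling more genes were lower than higher at 2-fold or more, 3151 against 2359. Larger folds were not counted with that scaling. The log2 fold change (CEY1 over CEY2) had a median of −0.03 over all tested genes, with quartiles of −0.87 and 0.97. Values are relative within each library: without a spike-in, the amount of RNA per IP is unknown. In 10441 of the tested genes (89.7%) both libraries of one strain lay above both of the other, so a gene whose libraries do not overlap is the usual case here and is not in itself a result about that gene.

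How much could be called depended on the level. Among 2458 genes under 1 CPM, 62.1% were called, with a median standard error of 0.411 on the log2 scale. Among 1954 genes of 100 CPM or more, 91.5% were called, with a median standard error of 0.0415, and 389 of these were at least 2-fold higher and 243 at least 2-fold lower with CEY1. A small log2 difference is therefore called more readily in mRNAs with many counts. The 2-fold counts are given beside the calls of many lists for that reason. Shares of a list are read against those of all tested genes. With FLAG these were 39.7% called higher and 41.4% lower, and 24.3% and 21.5% at 2-fold or more. With MYC they were 27.5% called higher and 28.3% lower. In the paragraphs on genes, a number in brackets is the log2 fold change (CEY1 over CEY2) in the FLAG IPs, with ± its SE, unless another quantity is named.

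**Figure D1:**
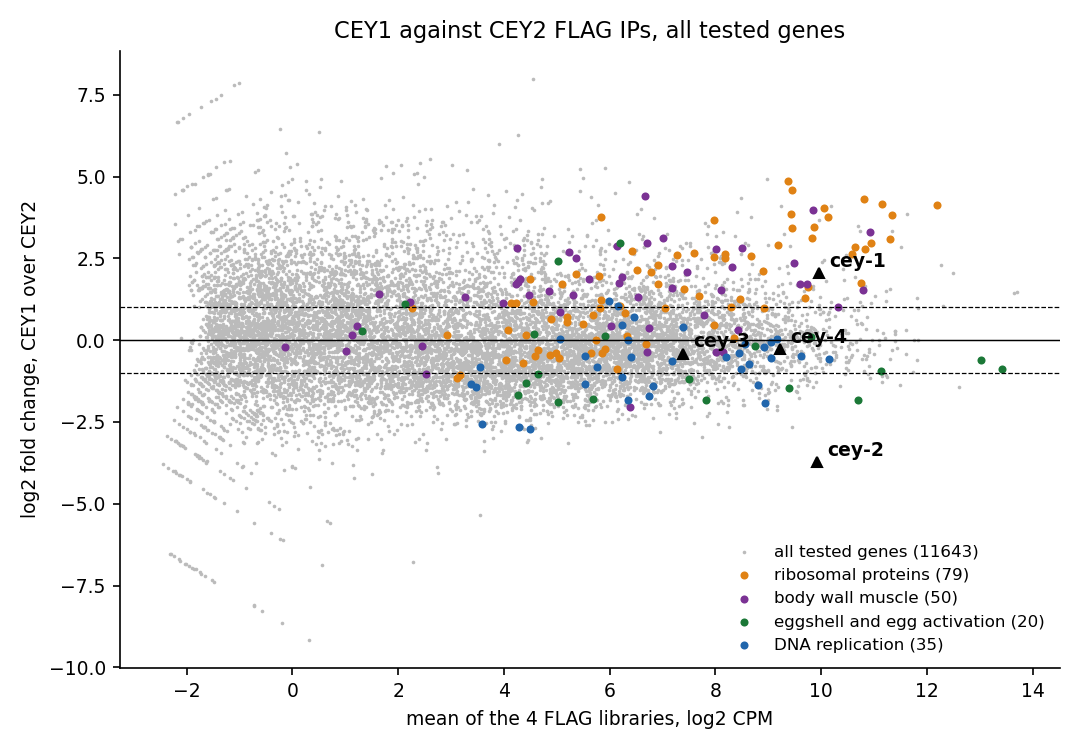
Log2 fold change of each of the 11643 tested genes (CEY1 over CEY2, FLAG IPs; vertical axis) against the mean of the 4 libraries in log2 CPM (horizontal axis), with 4 gene groups in colour, the cey genes as triangles and dashed lines at a 2-fold difference. Ribosomal protein genes and body wall muscle genes lie mostly above 0, DNA replication genes mostly below 0, and the streaks of grey points at the left are genes with few or no counts in one strain, whose fitted values have no fixed size.

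The mRNA of each tagged gene was higher in the IP of its own protein. For cey-1 (WBGene00000472) the levels were 1658 and 1528 CPM with CEY1, against 387 and 385 CPM with CEY2. Both CEY1 libraries were about 4 times as high as both CEY2 libraries, a log2 fold change of 2.05 ± 0.04 (SE, adjusted p = 1.31e-30). The cey-2 mRNA (WBGene00000473) lay at 134 and 139 CPM with CEY1, against 1825 and 1778 CPM with CEY2. Its log2 fold change of −3.72 ± 0.04 (adjusted p = 2.15e-37) was the largest difference in either direction among the cey genes. In the MYC IPs both signs turned round, with −0.27 for cey-1 (adjusted p = 0.00548) and 0.51 for cey-2 (adjusted p = 1.54e-06). The MYC value of cey-1 missed the threshold without CEY2 MYC replicate 2 (−0.20, adjusted p = 0.179). The FLAG difference minus the MYC difference, tested in one model of the 8 libraries, was 1.95 for cey-1 and −4.60 for cey-2 (adjusted p = 6.85e-16 and 2.26e-23). Reads from a transgene and from the gene it copies cannot be separated in these counts.

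The untagged family members differed by much less. For cey-3 the values were 134 and 152 CPM with CEY1, against 191 and 190.1 CPM with CEY2. Its log2 fold change of −0.42 ± 0.05 (adjusted p = 1.39e-09) stood against 0.39 in the MYC IPs. The cey-4 mRNA was at 546 and 531 CPM with CEY1, against 640.4 and 657 CPM with CEY2, a log2 fold change of −0.27 ± 0.04 (adjusted p = 3.52e-08). It was lower with CEY1 in the MYC IPs too, at −0.54. The mRNA of lin-28, whose protein has a cold-shock domain and times larval development, lay at 23.8 and 23.4 CPM with CEY1, against 31.95 and 31.1 CPM with CEY2 (−0.42 ± 0.07, adjusted p = 3.28e-06). All 3 mRNAs were thus called lower with CEY1, each by less than 1.5-fold in its group means.

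Of the genes that lend parts to the transgenes, the beta-tubulin gene tbb-2 stood at 2321 and 2379.6 CPM with CEY1, against 1021 and 1058 CPM with CEY2 (1.18 ± 0.03, adjusted p = 2.04e-25), with 0.18 in the MYC IPs. Both strains carry its 3′ UTR, so transgene reads can enter either side. The marker gene unc-119 was barely detected, at 1.84 and 2.24 CPM with CEY1, against 1.74 and 1.31 CPM with CEY2. Its log2 fold change of 0.42 ± 0.22 was not called (adjusted p = 0.082), although it passed the threshold without CEY2 FLAG replicate 1 (0.63, adjusted p = 0.0249). The dpy-30 mRNA, of a subunit of histone methyltransferase complexes, had 7.91 and 8.51 CPM with CEY1, against 19.8 and 19.1 CPM with CEY2 (−1.25 ± 0.10, adjusted p = 1.32e-13). Neither of the 2 strains carries its promoter.

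**Figure D2:**
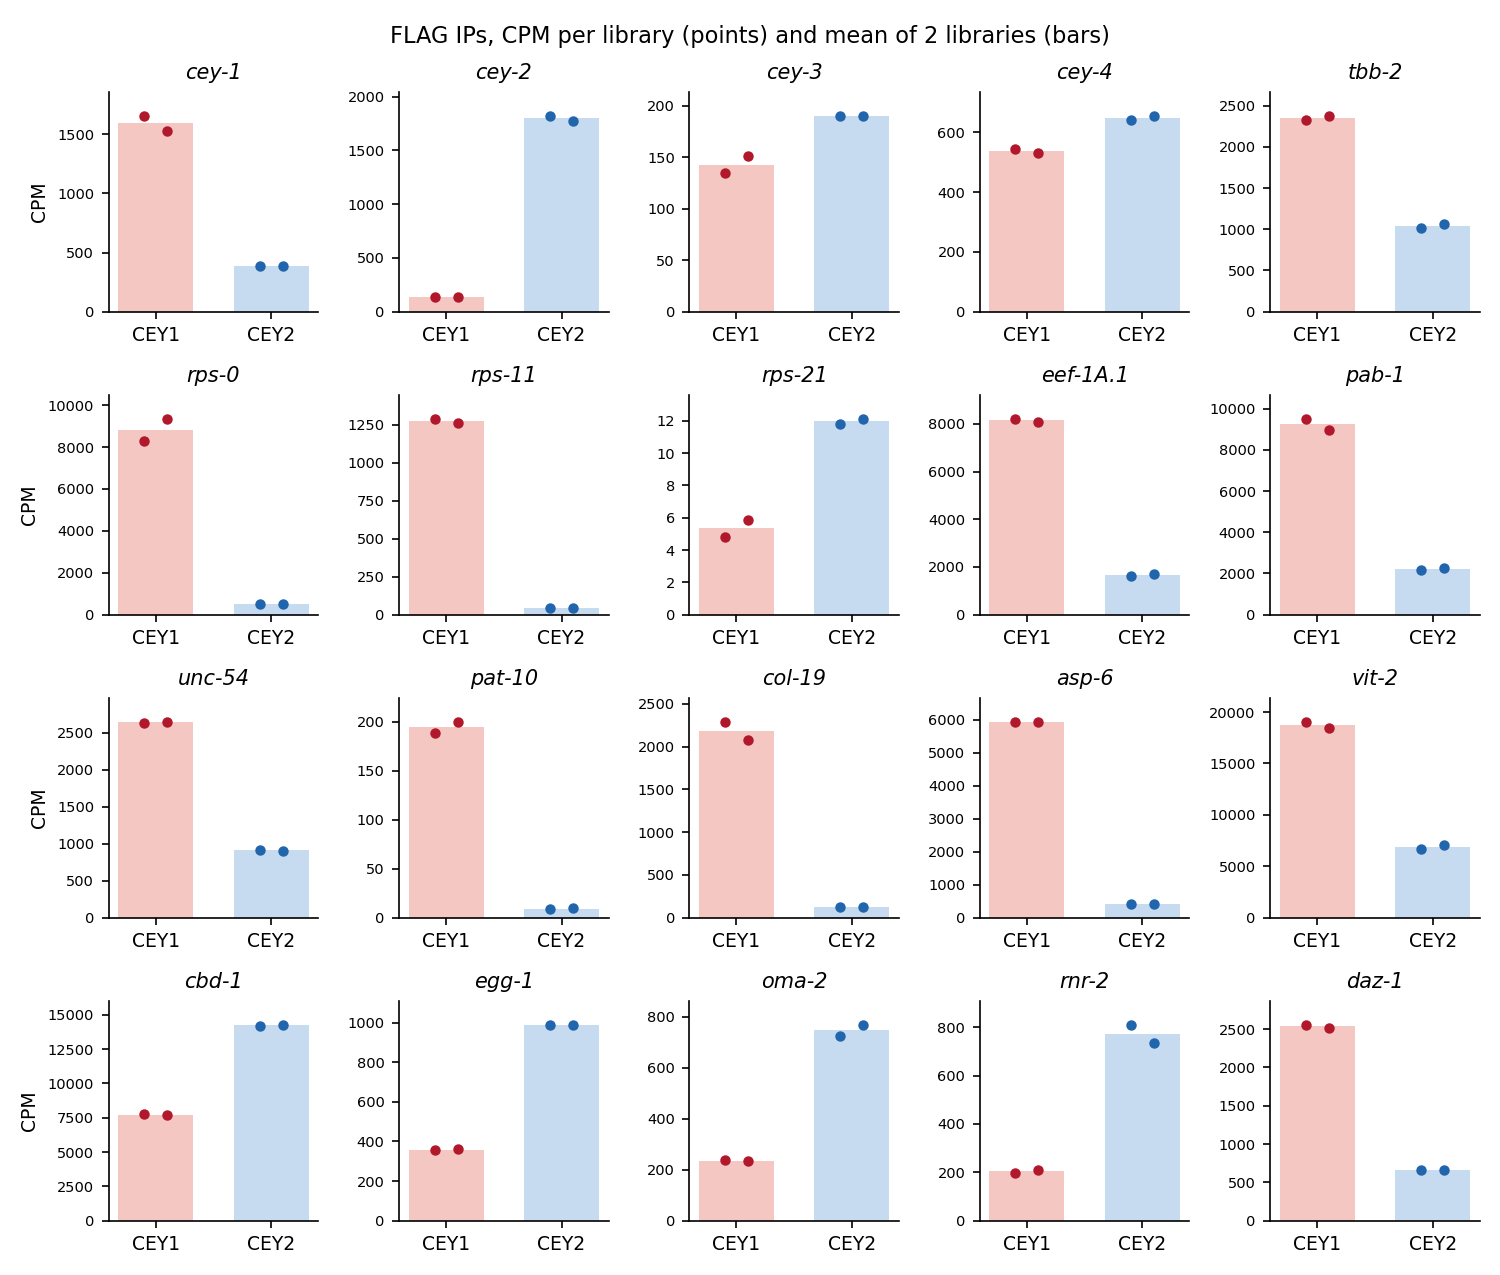
FLAG IPs, CPM of each library (points) and mean of the 2 libraries of a strain (bars), CEY1 left and CEY2 right, for 20 genes on linear axes of their own. The points of a strain lie close together beside the gap between strains, with cey-1, ribosomal protein, translation factor, muscle and intestine genes high with CEY1, and cey-2, rps-21, cbd-1, egg-1, oma-2 and rnr-2 high with CEY2.

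The mRNAs of the ribosome's own proteins stood mostly on the CEY1 side. Cytosolic ribosomal protein mRNAs took 6.09% and 6.23% of all counts with CEY1, against 1.05% and 1.09% with CEY2. In the MYC IPs their share did not set the strains apart in this way, at 6.07% and 6.16% with CEY1 and 6.01% and 5.71% with CEY2. Of 79 tested ribosomal protein genes, 61 were called higher with CEY1, 13 lower and 5 neither way. At 2-fold or more 48 were higher and 2 lower. Their median log2 fold change was 1.35, against −0.03 over all tested genes, and 0.15 in the MYC IPs, where 8 were higher and 2 lower at 2-fold or more.

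Of the 32 small subunit genes, 25 (78.1%) were called higher and 4 (12.5%) lower. The mRNA of rps-0 stood at 8301 and 9359 CPM with CEY1, against 508 and 508 CPM with CEY2, a log2 fold change of 4.12 ± 0.04 (adjusted p = 1.07e-37). The mRNA of rps-11 lay at 1293 and 1265 CPM with CEY1, against 43.2 and 45.4 CPM with CEY2, with the largest value of the group, 4.85 ± 0.04 (adjusted p = 1.24e-38). For rps-1 the levels were 4353 and 4239 CPM with CEY1, against 229 and 256 CPM with CEY2 (4.15 ± 0.04). For rps-6 they were 3405 and 3600.0 CPM with CEY1, against 447 and 450.2 CPM with CEY2 (2.96 ± 0.04). The CEY1 libraries of these 4 genes lay far above the CEY2 libraries, whereas their MYC log2 fold changes ran from 0.04 to 0.21. In the other direction, rps-21 stood at 4.82 and 5.89 CPM with CEY1, against 11.8 and 12.1 CPM with CEY2 (−1.17 ± 0.12, adjusted p = 8.89e-11). It was lower in the MYC IPs as well (−1.65). The mRNA of rps-22 had 26.3 and 26.9 CPM with CEY1, against 36.8 and 40.9 CPM with CEY2 (−0.55 ± 0.07).

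Of the 47 tested large subunit genes, 36 (76.6%) were called higher and 9 (19.1%) lower. The mRNA of rpl-11.2 lay at 1321 and 1368 CPM with CEY1, against 55.8 and 55.6 CPM with CEY2, a log2 fold change of 4.59 ± 0.04 (adjusted p = 1.3e-38). With MYC it was slightly lower with CEY1 (−0.27, adjusted p = 0.00515), a call that was lost without CEY2 MYC replicate 1 (adjusted p = 0.115). The mRNA of rpl-21 had 3376 and 3483 CPM with CEY1, against 167 and 181 CPM with CEY2 (4.30). Values of 4.05 for rpl-16 and 3.75 for rpl-12 were of like size. Large subunit mRNAs on the CEY2 side were rpl-27, at 54.7 and 44.9 CPM with CEY1, against 88.6 and 94.2 CPM with CEY2 (−0.87), and rpl-38 (−1.06). The 2 subunits thus spread over the same range, and the spread among ribosomal protein genes, from −1.17 to 4.85, was wide beside standard errors of 0.04 for rps-11 and rpl-11.2. Reads shared between near-identical copies may have been split in counting, which bears on rpl-11.2 and its paralog.

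**Figure D3:**
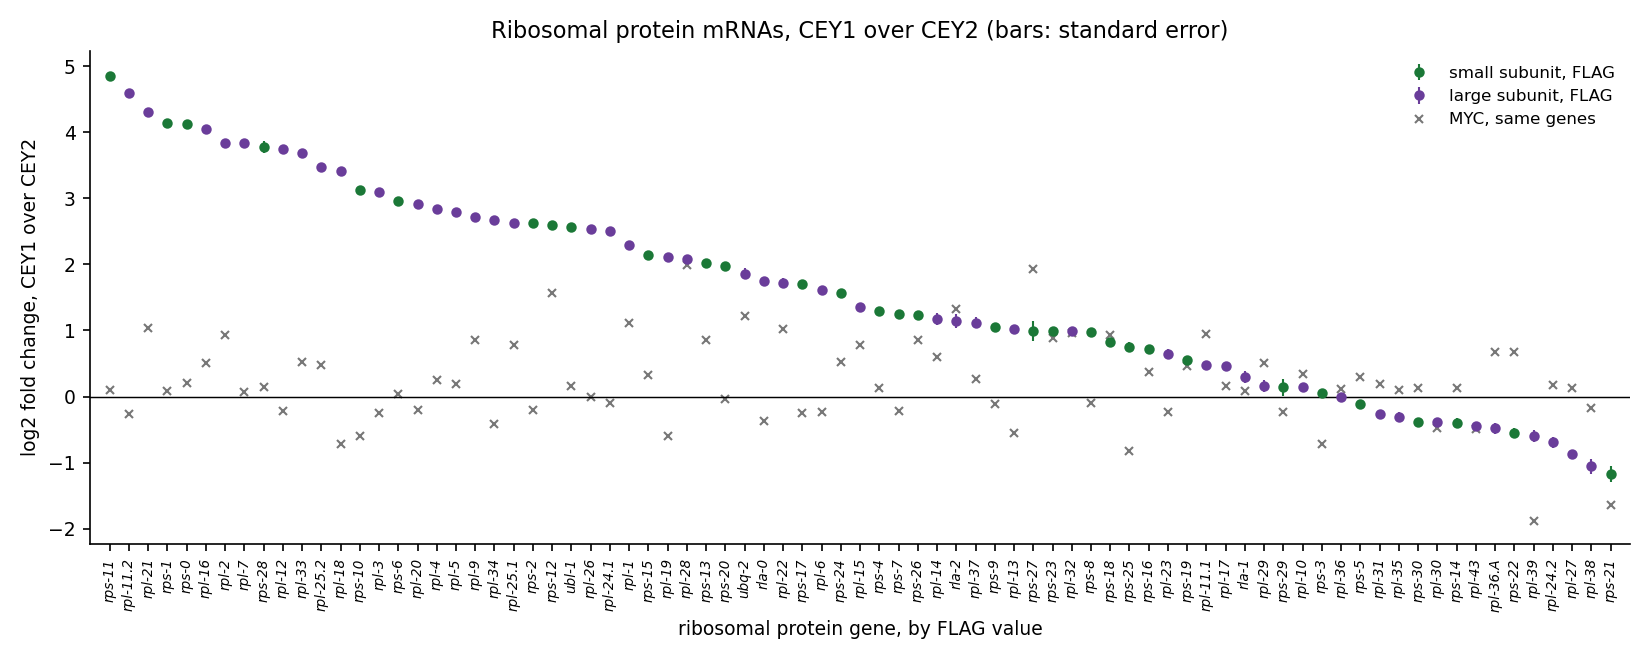
Log2 fold change (CEY1 over CEY2) of the 79 tested cytosolic ribosomal protein genes, ordered by their FLAG value, with the standard error as a bar (mostly smaller than the point) and the MYC value of the same gene as a cross. The FLAG values run from 4.85 to −1.17, while the MYC crosses scatter around their median of 0.15.

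Translation factors did not move as one with the ribosome. Of 51 tested initiation and elongation factor genes, 19 (37.3%) were called higher and 27 (52.9%) lower, with a median of −0.23 (−0.44 with total-count scaling). Members with many counts were found on the CEY1 side. The mRNA of eef-1A.1, elongation factor 1A, had 8226 and 8066 CPM with CEY1, against 1632 and 1695 CPM with CEY2 (2.29 ± 0.03, adjusted p = 7.96e-34). The poly(A)-binding protein gene pab-1 stood at 9522 and 8982 CPM with CEY1, against 2183 and 2256 CPM with CEY2 (2.06 ± 0.03, adjusted p = 3.42e-32). The elongation factor 1 gamma gene eef-1G (1.199) was higher too. So was the second poly(A)-binding protein gene, pab-2 (1.56), which was lower with CEY1 in the MYC IPs (−1.15). On the other side stood eif-2Bdelta, a subunit of the exchange factor for initiation factor 2, at 52.5 and 50.2 CPM with CEY1, against 185 and 177 CPM with CEY2 (−1.81 ± 0.05). The mRNA of ncbp-2, a subunit of the nuclear cap-binding complex, was lower as well, at 14.01 and 13.3 CPM with CEY1, against 62.0 and 71.0 CPM with CEY2 (−2.28 ± 0.08). Summed over the list, the levels were 34056 and 33697 CPM with CEY1, against 14077 and 14344 CPM with CEY2. A group that was higher in sum thus held more lower than higher genes.

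The mitochondrial ribosome had a negative median, −0.47, against 0.47 in the MYC IPs. Of its 64 tested protein genes, 21 (32.8%) were called higher and 35 (54.7%) lower, and the list was mixed at 2-fold or more, with 7 higher and 14 lower. The mRNA of mrpl-11 stood at 13.4 and 11.5 CPM with CEY1, against 40.6 and 41.1 CPM with CEY2 (−1.70 ± 0.08), and mrpl-40 was lower too (−1.21). The mRNA of mrps-11 was higher, at 168 and 179 CPM with CEY1, against 22.2 and 19.01 CPM with CEY2 (3.08 ± 0.06). So were mrpl-1 (2.29), mrpl-2 (2.21) and mrpl-37 (2.07). Of 31 aminoacyl-tRNA synthetase genes, which charge tRNAs with their amino acids, 9 (29%) were called higher and 18 (58.1%) lower. Their median was −0.23 (−0.44 with total-count scaling). At 2-fold or more 2 (6.45%) were higher and 4 (12.9%) lower, against 24.3% and 21.5% of all tested genes. The glutamyl-tRNA synthetase gene ears-1 had 588 and 582 CPM with CEY1, against 206 and 207 CPM with CEY2 (1.503), and kars-1 was higher as well (1.205). The seryl-tRNA synthetase gene sars-1 had 21.1 and 22.7 CPM with CEY1, against 58.2 and 57.1 CPM with CEY2 (−1.40), and aars-2 was lower as well (−1.24).

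Among genes of differentiated somatic tissues, those of muscle, intestine and neuropeptides were mostly higher with CEY1. Cuticle collagen and other hypodermis genes stood on both sides. These are whole-animal IPs, so fewer cells of a type and less RNA per cell cannot be told apart. The strain difference of each tissue's genes in the MYC IPs is given beside each group, and its part in the FLAG difference was not tested.

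Body wall muscle genes lay mostly on the CEY1 side. Of 50 tested, 40 (80%) were called higher and 5 (10%) lower. At 2-fold or more the counts were 34 (68%) higher and 2 (4%) lower, against 24.3% and 21.5% of all tested genes. Their median was 1.54 with FLAG and −0.20 with MYC. Their summed level was 19152 and 19169 CPM with CEY1, against 5692 and 5664 CPM with CEY2 in the FLAG IPs. In the MYC IPs the sum was 18543 and 18299 CPM with CEY1, against 21414 and 21540.2 CPM with CEY2, so the strains stood the other way round there. The myosin heavy chain gene unc-54 stood at 2627 and 2649.7 CPM with CEY1, against 919.7 and 902 CPM with CEY2 (1.53 ± 0.03). The troponin C gene pat-10 had 189 and 200.3 CPM with CEY1, against 8.503 and 9.64 CPM with CEY2 (4.41 ± 0.07, adjusted p = 2.05e-33), with a MYC value of 0.45. The calponin-like gene clik-1 was at 1746 and 1719 CPM with CEY1, against 110.1 and 108 CPM with CEY2 (3.99 ± 0.04). The actin gene act-4 was at 3494 and 3546 CPM with CEY1, against 354 and 359 CPM with CEY2 (3.30 ± 0.04). The tropomyosin gene lev-11 had 628 and 635 CPM with CEY1, against 91.6 and 88.8 CPM with CEY2 (2.81 ± 0.04), with a MYC value of −0.78. The thin filament genes pat-10, act-4 and lev-11 had larger values than the myosin gene. They were named for large or strongly called differences and unc-54 as a tissue marker, so no contrast of filament types is read from this. On the CEY2 side stood unc-45, the myosin chaperone, at 34.1 and 31.7 CPM with CEY1, against 134 and 136 CPM with CEY2 (−2.03 ± 0.06), and the ryanodine receptor gene unc-68 (−0.37).

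Pharyngeal muscle genes followed the same direction. Of 10 tested, 9 (90%) were called higher with CEY1, against 39.7% of all tested genes. Their median was 1.22, against −0.59 in the MYC IPs. The troponin I gene tni-4 had 44.9 and 45.8 CPM with CEY1, against 4.64 and 4.89 CPM with CEY2 (3.25 ± 0.09). The troponin T gene tnt-4 had 64.9 and 68.3 CPM with CEY1, against 11.8 and 9.75 CPM with CEY2 (2.63 ± 0.08). The myosin genes followed, with myo-1 at 242 and 240.3 CPM with CEY1, against 109 and 111 CPM with CEY2 (1.14), myo-5 (1.3002) and myo-2 (0.52). The 4 tested phat genes of the pharyngeal glands had a FLAG median of 1.91 (1.02 in the fit of 12 libraries) and a MYC median of −0.03. Of these, phat-7 was higher, at 39.8 and 41.3 CPM with CEY1, against 4.80 and 5.42 CPM with CEY2 (2.98), as were phat-3 (2.49) and phat-4 (1.33). The fourth, phat-8, lay under 1 CPM in both strains and was lower (−1.42, adjusted p = 0.00245 with edgeR). It missed the threshold with DESeq2 (adjusted p = 0.078) and without CEY2 FLAG replicate 2 (adjusted p = 0.0793).

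The pqn and abu genes encode proteins rich in glutamine and asparagine, several of them of the pharyngeal cuticle. Of 55 tested, 44 (80%) were called higher and 5 (9.09%) lower, against 39.7% and 41.4% of all tested genes. Their median was 1.57, against −0.65 in the MYC IPs. The mRNA of pqn-20 stood at 6847 and 6753 CPM with CEY1, against 3305 and 3260.1 CPM with CEY2 (1.05 ± 0.03). A larger difference was seen for pqn-22, at 727 and 793 CPM with CEY1, against 56.1 and 55.4 CPM with CEY2 (3.77 ± 0.05). The genes pqn-65 (1.65) and pqn-70 (1.57) were higher too. Lower were pqn-52, at 36.7 and 34.5 CPM with CEY1, against 102 and 99.9 CPM with CEY2 (−1.50), and pqn-51 (−0.49). Reads of the more alike abu and pqn genes may have been shared among copies.

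In the intestine, yolk protein and protease genes stood on the CEY1 side. All 6 vitellogenin genes were called higher with CEY1, 5 of them at 2-fold or more. Their sum was 43215 and 41596 CPM with CEY1, against 15495 and 16011 CPM with CEY2. The mRNA of vit-6 stood at 20018 and 19164 CPM with CEY1, against 7032 and 7113 CPM with CEY2 (1.47 ± 0.03, adjusted p = 2.47e-29). The mRNA of vit-2 had 19081 and 18433 CPM with CEY1, against 6675 and 7068 CPM with CEY2 (1.45 ± 0.03). Both were lower with CEY1 in the MYC IPs, at −0.37 and −0.48. The mRNAs of vit-1 (1.66) and vit-3 (2.40) were higher as well, but vit-3 to vit-5 are near-identical and may share reads.

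Among 55 further intestinal genes, 35 (63.6%) were called higher and 13 (23.6%) lower, with a median of 1.03, against −0.08 in the MYC IPs. The FLAG median was 0.58 when all 12 libraries were fitted together, which tests more genes of low counts. The aspartyl protease gene asp-6 had 5941 and 5916 CPM with CEY1, against 410.4 and 416 CPM with CEY2, a log2 fold change of 3.84 ± 0.04 (adjusted p = 1.24e-38). Its MYC levels, 1548 and 1755 CPM with CEY1, against 1586 and 1575 CPM with CEY2, overlapped, although the MYC difference of asp-6 was called without CEY1 MYC replicate 1 (0.17, adjusted p = 0.0115). A second aspartyl protease gene, asp-1, stood at 4859 and 4527 CPM with CEY1, against 431 and 494 CPM with CEY2 (3.34). Its relatives asp-2 (3.19) and asp-5 (2.90) were higher too. So was elt-2, the GATA factor that specifies the intestine, at 14.04 and 15.7 CPM with CEY1, against 1.84 and 1.33 CPM with CEY2 (3.23 ± 0.15). The saposin-like gene spp-14 was lower, at 4.37 and 3.41 CPM with CEY1, against 27.5 and 26.1 CPM with CEY2 (−2.76), as was the transporter gene pgp-1 (−2.55). Both were lower in the MYC IPs as well (−1.94 and −3.03).

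Neuronal genes were more divided. Of 54 synaptic and neuronal genes, 30 (55.6%) were called higher and 13 (24.1%) lower, with a median of 0.41, against −0.73 with MYC. This FLAG median was 0.21 with total-count scaling and 0.13 in the fit of 12 libraries. At 2-fold or more 13 (24.1%) were higher and 8 (14.8%) lower, against 24.3% and 21.5% of all tested genes. The ankyrin gene unc-44 had 972 and 964 CPM with CEY1, against 432 and 427 CPM with CEY2 (1.17 ± 0.04). The proprotein convertase gene egl-3, which processes neuropeptides, had 74.8 and 82.5 CPM with CEY1, against 21.2 and 20.5 CPM with CEY2 (1.91 ± 0.07). Each was lower with CEY1 in the MYC IPs (−0.93 and −0.68). The tyrosine decarboxylase gene tdc-1, which is also used in the gonad, was lower, at 153 and 145 CPM with CEY1, against 581 and 599.6 CPM with CEY2 (−1.98 ± 0.04). So were unc-33, a regulator of axon growth, at 32.4 and 33.1 CPM with CEY1, against 108 and 106 CPM with CEY2 (−1.71), the ubiquitin ligase gene rpm-1 (−1.27) and the synaptobrevin gene snb-1 (−1.85). Neuropeptide and insulin-like peptide genes had low counts, at a summed level of 118 and 119.4 CPM with CEY1, against 68.5 and 64.3 CPM with CEY2. Of 138 measured only 61 passed the filter on low counts, and of these 39 (63.9%) were called higher and 10 (16.4%) lower. A gene of low counts can pass this filter through the strain where it is higher, so these shares depend on the filter. The FLAG median was 1.26, and 0.99 in the fit of 12 libraries. In the MYC IPs 3 of 48 tested were called higher and 24 lower, with a median of −0.74. The FMRFamide-like peptide gene flp-3 had 11.3 and 11.5 CPM with CEY1, against 2.00 and 1.695 CPM with CEY2 (2.63). Others were flp-24, at 5.20 and 5.56 CPM with CEY1, against 0.612 and 0.417 CPM with CEY2 (3.39), and nlp-9 (2.35). The antimicrobial peptide gene nlp-31 of the epidermis was lower (−2.34), as it was in the MYC IPs (−1.35).

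Genes of the somatic gonad leaned to CEY1. Of 19 tested, 11 (57.9%) were called higher and 5 (26.3%) lower, against 39.7% and 41.4% of all tested genes. With MYC 4 of 19 were called higher and 6 lower, with a median of −0.07, against 27.5% and 28.3% of all genes tested there. The non-muscle myosin gene nmy-1 had 969.7 and 964 CPM with CEY1, against 213 and 209 CPM with CEY2 (2.198 ± 0.04). The EGF gene lin-3 had 157 and 152 CPM with CEY1, against 43.5 and 42.7 CPM with CEY2 (1.84 ± 0.05). The IP3 receptor gene itr-1 had 188 and 188 CPM with CEY1, against 55.9 and 59.0 CPM with CEY2 (1.71 ± 0.05). All 3 were higher in the MYC IPs too (1.00, 0.92 and 0.40). The plastin gene plst-1 was lower, at 8.77 and 11.1 CPM with CEY1, against 48.7 and 45.4 CPM with CEY2 (−2.25), as was the cadherin gene cdh-3 (−1.18). Of 11 tested coelomocyte and excretory cell genes, 6 (54.5%) were called higher and 2 (18.2%) lower, beside the same shares of all tested genes. With MYC 2 of 13 were called higher and 3 lower. The excretory canal genes exc-5 (1.11) and exc-6 (0.90) were higher, and exc-4 (−0.60) was lower.

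Cuticle collagen genes were found on both sides. Of 123 tested, 56 (45.5%) were called higher and 50 (40.7%) lower, near the 39.7% and 41.4% of all tested genes. At 2-fold or more stood 41 (33.3%) and 36 (29.3%), against 24.3% and 21.5% of all tested genes, and 7 and 8 differed by 16-fold or more. Of the collagen genes 175 were measured, and one of low counts can pass the filter through the strain where it is higher. Among those tested, 3 had 0 counts in one strain, so their fold has no fixed size. The 8 include col-50, col-84 and col-123, with low means over the 4 libraries of −2.32, −2.02 and −1.95 log2 CPM. Most of the list was lower with CEY1 in the MYC IPs, with 91 of 126 tested genes called lower, 18 higher and a median of −1.23. The adult collagen gene col-19 stood at 2295 and 2080.0 CPM with CEY1, against 122.4 and 130.2 CPM with CEY2 (4.11 ± 0.05, adjusted p = 4.66e-37), with a MYC value of 0.34. The collagen gene col-129 had 1146 and 1136 CPM with CEY1, against 65.5 and 66.7 CPM with CEY2 (4.11 ± 0.04). The collagen gene col-81 had 626 and 649.9 CPM with CEY1, against 42.6 and 41.9 CPM with CEY2 (3.92 ± 0.04), and col-139 was higher too (3.59). Against most of the list, all 3 were also higher with CEY1 in the MYC IPs (1.81, 2.22 and 1.91). The collagen genes rol-6 and dpy-7, known for their use in larval cuticles and moults, were lower with CEY1. The values were 1.84 and 1.87 CPM with CEY1, against 12.0 and 12.4 CPM with CEY2 for rol-6 (−2.71 ± 0.14). For dpy-7 they were 0.527 and 0.421 CPM with CEY1, against 2.71 and 2.86 CPM with CEY2 (−2.53 ± 0.27). Both were lower in the MYC IPs too (−2.84 and −2.84). A further collagen gene, dpy-14, had 0.113 and 0.0467 CPM with CEY1, against 9.82 and 9.39 CPM with CEY2, which rests on 3 counts and 1 count in the CEY1 libraries.

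Hypodermis genes outside the collagens had shares near those of all genes: of 62 tested, 27 (43.5%) were called higher and 25 (40.3%) lower. In the MYC IPs, however, 51 of 62 were called lower with CEY1 and 1 higher, with a median of −1.57. The hedgehog-related gene grd-6 had 46.6 and 52.5 CPM with CEY1, against 4.61 and 4.59 CPM with CEY2 (3.43). The GATA factor gene elt-1 had 35.2 and 34.5 CPM with CEY1, against 6.99 and 7.98 CPM with CEY2 (2.22). Both were lower with CEY1 in the MYC IPs (−0.69 and −0.94). The moulting gene mlt-11 was lower, at 50.8 and 53.2 CPM with CEY1, against 117 and 113 CPM with CEY2 (−1.14). The fibrillin-like gene fbn-1 was lower too, at 7.72 and 7.48 CPM with CEY1, against 23.7 and 25.21 CPM with CEY2 (−1.69), as was the prolyl 4-hydroxylase gene dpy-18 (−1.21). These 3 were lower in the MYC IPs as well (−2.63, −3.15 and −1.68). The astacin protease gene hch-1 was listed at 0 counts in both CEY1 libraries and at 2.77 and 2.22 CPM with CEY2. Cuticle genes thus differed between the strains' MYC IPs as well, in the same direction for these moulting genes. The part of that strain difference in the FLAG values was not tested.

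Germline groups gave no single direction. Eggshell and egg activation genes leaned to CEY2: of 20 tested, 5 (25%) were called higher and 13 (65%) lower, with a median of −0.92, against 0.20 in the MYC IPs. The eggshell gene cbd-1, whose protein binds chitin, had high counts in both IPs, at 7738 and 7691 CPM with CEY1, against 14186 and 14289 CPM with CEY2 (−0.88 ± 0.03). The chitin synthase gene chs-1 stood at 735 and 712 CPM with CEY1, against 2569 and 2582 CPM with CEY2 (−1.83 ± 0.03, adjusted p = 1.16e-30), with a MYC value of 0.01. The oocyte surface gene egg-1 had 354 and 359.9 CPM with CEY1, against 990.4 and 988 CPM with CEY2 (−1.47 ± 0.04), and in the MYC IPs it was higher with CEY1 (0.80). The mRNA of egg-3, which acts at egg activation, had 98.9 and 97.6 CPM with CEY1, against 352 and 354 CPM with CEY2 (−1.85). The permeability barrier gene perm-4 stood on the CEY1 side, at 131 and 129.6 CPM with CEY1, against 15.5 and 17.3 CPM with CEY2 (2.98). So did perm-2, at 52.3 and 57.7 CPM with CEY1, against 9.37 and 10.98 CPM with CEY2 (2.42), and the sperm-supplied gene spe-11 (1.11).

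Of 40 maternal regulators of the oocyte and zygote, 11 (27.5%) were called higher and 26 (65%) lower, with a median of −0.45. At 2-fold or more 2 (5%) were higher and 9 (22.5%) lower, against 24.3% and 21.5% of all tested genes. The oocyte maturation gene oma-1 had 96.5 and 101 CPM with CEY1, against 229.7 and 245 CPM with CEY2 (−1.27 ± 0.05). Its partner oma-2 had 237 and 235 CPM with CEY1, against 725 and 769.9 CPM with CEY2 (−1.66 ± 0.04). The katanin gene mei-1, which shapes the meiotic spindle, was lower too, at 64.8 and 61.2 CPM with CEY1, against 227 and 231 CPM with CEY2 (−1.86). So was zyg-11 (−1.23), a ubiquitin ligase subunit for the meiotic divisions. The polarity gene mex-5 was higher, at 2363 and 2359 CPM with CEY1, against 1136 and 1174 CPM with CEY2 (1.03 ± 0.03). The transcription factor gene skn-1 was higher, at 515 and 511 CPM with CEY1, against 236 and 249 CPM with CEY2 (1.08), as was the fate regulator mex-1 (0.88). The yolk receptor gene rme-2 was lower, at 1417 and 1391 CPM with CEY1, against 2076 and 2146 CPM with CEY2 (−0.59).

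Germline RNA-binding and P-granule genes leaned to CEY1, with a median of 0.37 (0.16 with total-count scaling). Of 50 tested, 30 (60%) were called higher and 13 (26%) lower, against 39.7% and 41.4% of all tested genes. At 2-fold or more 14 (28%) were higher and 3 (6%) lower, against 24.3% and 21.5%. The DAZ homolog daz-1 had 2559 and 2509.6 CPM with CEY1, against 660.0 and 663 CPM with CEY2 (1.94 ± 0.03, adjusted p = 2.03e-31). The eIF4E-binding repressor gene ifet-1 had 3043 and 2926 CPM with CEY1, against 1184 and 1177 CPM with CEY2 (1.34 ± 0.03). The DEAD-box helicase gene cgh-1 had 1442 and 1438 CPM with CEY1, against 559.7 and 593 CPM with CEY2 (1.32 ± 0.04). The mRNA of gla-3, which encodes a zinc finger protein, was higher too, at 702 and 723 CPM with CEY1, against 219 and 232 CPM with CEY2 (1.66 ± 0.04). The translational repressor gene gld-1 stood at 1354 and 1353 CPM with CEY1, against 619 and 664 CPM with CEY2 (1.08 ± 0.04). Other regulators of germline translation went the other way, among them oma-1 and oma-2. The nanos homolog nos-1 was lower, at 15.02 and 15.3 CPM with CEY1, against 74.7 and 73.6 CPM with CEY2 (−2.29 ± 0.07). So were the P-granule genes pgl-3, at 92.8 and 90.6 CPM with CEY1, against 217 and 231 CPM with CEY2 (−1.29), and pgl-1 (−0.55). The germline helicase gene glh-1 was not called, at 325 and 312 CPM with CEY1, against 312 and 316 CPM with CEY2 (0.02, adjusted p = 0.621).

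Genes of DNA replication stood mostly on the CEY2 side. Of 35 tested, 5 (14.3%) were called higher and 26 (74.3%) lower, against 39.7% and 41.4% of all tested genes. At 2-fold or more the counts were 2 (5.71%) higher and 12 (34.3%) lower, and the median was −0.58, against 0.14 in the MYC IPs. The ribonucleotide reductase gene rnr-2 had 198 and 211 CPM with CEY1, against 811 and 737 CPM with CEY2 (−1.92 ± 0.04, adjusted p = 3.21e-28). The PCNA gene pcn-1 had 34.0 and 38.5 CPM with CEY1, against 126 and 129 CPM with CEY2 (−1.82 ± 0.06). The primase gene pri-2 had 47.9 and 53.1 CPM with CEY1, against 161 and 168 CPM with CEY2 (−1.71 ± 0.05). The replicative helicase gene mcm-2 had 245 and 252 CPM with CEY1, against 640.1 and 648 CPM with CEY2 (−1.37 ± 0.04). The geminin gene gmn-1 (1.19) and the polymerase epsilon subunit gene pole-2 (1.04) were higher.

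Of 45 meiosis genes, 15 (33.3%) were called higher and 22 (48.9%) lower, with 1 (2.22%) and 6 (13.3%) at 2-fold or more. The chromosome axis gene him-3 was lower, at 15.3 and 14.9 CPM with CEY1, against 49.4 and 49.5 CPM with CEY2 (−1.71). So were the axis gene htp-3 (−1.11), the cohesion protector gene lab-1 (−1.63) and the checkpoint kinase gene atm-1 (−1.55). The cohesin gene rec-8 (0.68) and the repair gene rad-50 (0.63) were higher. Of 56 cell division genes, 19 (33.9%) were called higher and 31 (55.4%) lower. Within the chromosomal passenger complex the direction differed. The mRNA of icp-1 (INCENP) had 912 and 946 CPM with CEY1, against 365 and 374 CPM with CEY2 (1.33 ± 0.04). The mRNA of csc-1 had 14.1 and 17.02 CPM with CEY1, against 63.1 and 63.8 CPM with CEY2 (−2.04 ± 0.07). The kinase gene bub-1 (1.11) was higher, and the cyclin gene cyb-3 (−1.21), separase gene sep-1 (−1.09) and anaphase-promoting complex gene mat-2 (−1.01) were lower.

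Sperm genes had low counts in both IPs, at a summed 218 and 209 CPM with CEY1, against 90.2 and 89.5 CPM with CEY2. Of 44 measured, 28 passed the filter on low counts, and of those 23 (82.1%) were called higher and 2 (7.14%) lower, with a median of 1.57. Here too, a gene of low counts can pass the filter through the strain where it is higher. The median was 1.45 in the fit of 12 libraries. Sperm genes were higher with CEY1 in the MYC IPs as well, where 20 of 25 were called higher (median 1.35). The sperm-specific gene sss-1 had 18.3 and 13.5 CPM with CEY1, against 0.290 and 0.472 CPM with CEY2 (5.35), with a MYC value of 2.67. The mRNA of gipc-1 had 32.04 and 32.7 CPM with CEY1, against 4.38 and 4.25 CPM with CEY2 (2.91), with a MYC value of 1.76. The kinase gene spe-6 (−1.47) and the zinc transporter gene zipt-7.1 (−0.63) were lower with FLAG and higher with MYC (0.69 and 0.78). Of 30 measured major sperm protein genes 1 passed the filter, msp-142, at 0.452 and 0.608 CPM with CEY1, against 0.0322 and 0.0834 CPM with CEY2.

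Of 79 measured histone genes 29 were tested, and 8 (27.6%) were called higher and 18 (62.1%) lower, with a median of −1.15. The replacement histone gene his-74 had 16.7 and 16.8 CPM with CEY1, against 61.5 and 67.3 CPM with CEY2 (−1.94). The H2A variant gene htz-1 had 59.8 and 55.7 CPM with CEY1, against 132 and 142 CPM with CEY2 (−1.24). The core histone genes his-62 (−1.79) and his-4 (−1.83) were lower too. The linker histone gene hil-5 was higher, at 428 and 426 CPM with CEY1, against 136 and 143 CPM with CEY2 (1.61), as was hil-4 (1.11). Most core histone genes exist in near-identical copies, and their values are uncertain.

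Genes of nuclear RNA and chromatin work were mostly called lower with CEY1. Of 64 pre-mRNA splicing factor genes, 15 (23.4%) were called higher and 42 (65.6%) lower. At 2-fold or more the counts were 2 (3.12%) higher and 21 (32.8%) lower, and the median was −0.51, against 0.19 in the MYC IPs. The SR protein gene rsp-3 had 20.4 and 18.7 CPM with CEY1, against 109 and 114 CPM with CEY2 (−2.51 ± 0.06). The spliceosomal helicase gene mog-4 had 71.7 and 73.9 CPM with CEY1, against 308 and 291 CPM with CEY2 (−2.04 ± 0.05), and its relative mog-1 was lower too (−1.42). The U5 helicase gene snrp-200 had 723 and 707 CPM with CEY1, against 1915 and 1877 CPM with CEY2 (−1.41 ± 0.03). The mRNA of prp-9, a U2 particle component, was higher, at 371 and 412 CPM with CEY1, against 128 and 118 CPM with CEY2 (1.67), as was that of cdc-5L (1.16).

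Of 61 tested genes of histone methylation and chromodomain proteins, 17 (27.9%) were called higher and 39 (63.9%) lower. At 2-fold or more 4 (6.56%) were higher and 10 (16.4%) lower, against 24.3% and 21.5% of all tested genes. The chromodomain gene cec-7 had 46.8 and 51.1 CPM with CEY1, against 258 and 250.3 CPM with CEY2 (−2.38 ± 0.05). The SET domain genes set-26, at 732 and 694 CPM with CEY1, against 1406 and 1386 CPM with CEY2 (−0.97), and set-9 (−0.93) were lower too, and as close copies they may share reads. The SET domain gene set-30 was higher, at 37.1 and 36.7 CPM with CEY1, against 6.89 and 7.14 CPM with CEY2 (2.39), as were set-31 (0.92) and the Polycomb-like gene mes-3 (0.70). Of 41 nuclear pore and transport genes, 12 (29.3%) were called higher and 21 (51.2%) lower, with 3 (7.32%) and 6 (14.6%) at 2-fold or more. The nucleoporin gene npp-11 was higher, at 1193 and 1164 CPM with CEY1, against 472 and 462 CPM with CEY2 (1.34), as was npp-22 (1.44). The exportin gene xpo-2 was lower, at 303 and 304 CPM with CEY1, against 761.9 and 764 CPM with CEY2 (−1.33), as were the importin alpha gene ima-2 (−1.08), npp-12 (−0.82) and npp-8 (−0.79).

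Housekeeping complexes held genes of both directions, as the transcriptome did, with 39.7% higher and 41.4% lower over all tested genes. Of 31 proteasome subunit genes, 9 (29%) were called higher and 19 (61.3%) lower. At 2-fold or more 2 (6.45%) were higher and 6 (19.4%) lower, against 24.3% and 21.5% of all tested genes. The lid subunit gene rpn-5 was higher, at 685 and 687 CPM with CEY1, against 343 and 346 CPM with CEY2 (0.99), as was rpn-12 (1.19). The ATPase subunit gene rpt-6 was lower, at 27.7 and 28.6 CPM with CEY1, against 98.9 and 102 CPM with CEY2 (−1.84), as were rpt-2 (−1.04), rpn-13 (−0.92) and pbs-7 (−1.95). Of 71 respiratory chain genes, 29 (40.8%) were called higher and 31 (43.7%) lower, with a median of −0.04. Among ATP synthase subunits, atp-4 was higher, at 204 and 220.1 CPM with CEY1, against 14.9 and 16.8 CPM with CEY2 (3.73 ± 0.06), as were atp-3 (2.39) and asb-2 (2.84). The complex I genes nuo-3, at 159 and 193 CPM with CEY1, against 23.7 and 24.96 CPM with CEY2 (2.85), and nuo-5 (−1.59) stood on opposite sides. Cytochrome c is encoded by cyc-2.1 and cyc-2.2, which also differed in direction. The mRNA of cyc-2.1 had 42.4 and 52.2 CPM with CEY1, against 108 and 101 CPM with CEY2 (−1.15 ± 0.06). The mRNA of cyc-2.2 had 12.8 and 11.1 CPM with CEY1, against 0.161 and 0.333 CPM with CEY2 (5.54 ± 0.22), with a MYC value of 2.63.

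Of 21 V-ATPase genes, which encode the proton pump of acidic compartments, 12 (57.1%) were called higher and 9 (42.9%) lower. The gene vha-20 was higher, at 105 and 109 CPM with CEY1, against 34.9 and 34.4 CPM with CEY2 (1.63), as were vha-16 (1.59), vha-14 (1.54) and vha-13 (1.29). The gene vha-3 was lower, at 6.02 and 6.97 CPM with CEY1, against 40.3 and 37.5 CPM with CEY2 (−2.59), as was unc-32 (−1.53). Of 53 tested chaperone genes, 25 (47.2%) were called higher and 24 (45.3%) lower. The cytosolic Hsp70 gene hsp-1 had 5099 and 5073 CPM with CEY1, against 2102 and 2060.5 CPM with CEY2 (1.29 ± 0.03). The Hsp90 gene hsp-90 had 3827 and 3710.1 CPM with CEY1, against 1245 and 1294 CPM with CEY2 (1.57 ± 0.03). The Hsp70 gene of the endoplasmic reticulum, hsp-3, had 628 and 643 CPM with CEY1, against 154 and 156 CPM with CEY2 (2.03 ± 0.04). The chaperonin gene cct-2 was lower, at 29.9 and 29.1 CPM with CEY1, against 96.2 and 102 CPM with CEY2 (−1.75), as were the J-domain genes dnj-13 (−1.53) and dnj-23 (−1.65). The chaperone shares lay near those of all genes.

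A further 3 large families, with many members of low counts, were tested in part. Over all tested genes 39.7% were called higher and 41.4% lower. Of 184 measured detoxification enzyme genes 107 were tested, and 33 (30.8%) were called higher and 44 (41.1%) lower, with a median of −0.33 (−0.20 without CEY2 FLAG replicate 1 and −0.51 without CEY2 FLAG replicate 2). The UDP-glucuronosyltransferase gene ugt-64 was lower, at 6.17 and 5.84 CPM with CEY1, against 20.1 and 21.5 CPM with CEY2 (−1.79), as was the cytochrome P450 gene cyp-13B2 (−2.87). The cytochrome P450 gene cyp-31A2 was higher, at 38.8 and 39.6 CPM with CEY1, against 17.4 and 19.1 CPM with CEY2 (1.1003), as was cyp-44A1 (0.88). Of 273 nuclear hormone receptor genes 146 were tested, and 43 (29.5%) were called higher and 46 (31.5%) lower. The receptor gene nhr-114 was higher, at 34.5 and 38.7 CPM with CEY1, against 4.61 and 4.17 CPM with CEY2 (3.06 ± 0.10), as were nhr-97 (1.80) and sex-1 (1.46). The receptor gene nhr-86 was lower, at 8.396 and 7.99 CPM with CEY1, against 38.3 and 39.9 CPM with CEY2 (−2.25 ± 0.08), as were nhr-20 (−2.06) and nhr-274 (−1.40). Of 395 genes with MATH, BATH or F-box domains 123 were tested, and 27 (22%) were called higher and 60 (48.8%) lower. Higher were bath-44, at 186 and 183 CPM with CEY1, against 47.7 and 49.9 CPM with CEY2 (1.92), and bath-42 (1.17). Lower were fbxc-50, at 6.93 and 7.62 CPM with CEY1, against 38.5 and 37.2 CPM with CEY2 (−2.38), fbxc-51 (−2.52), bath-40 (−1.12) and fbxa-215 (−0.59).

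**Figure D4:**
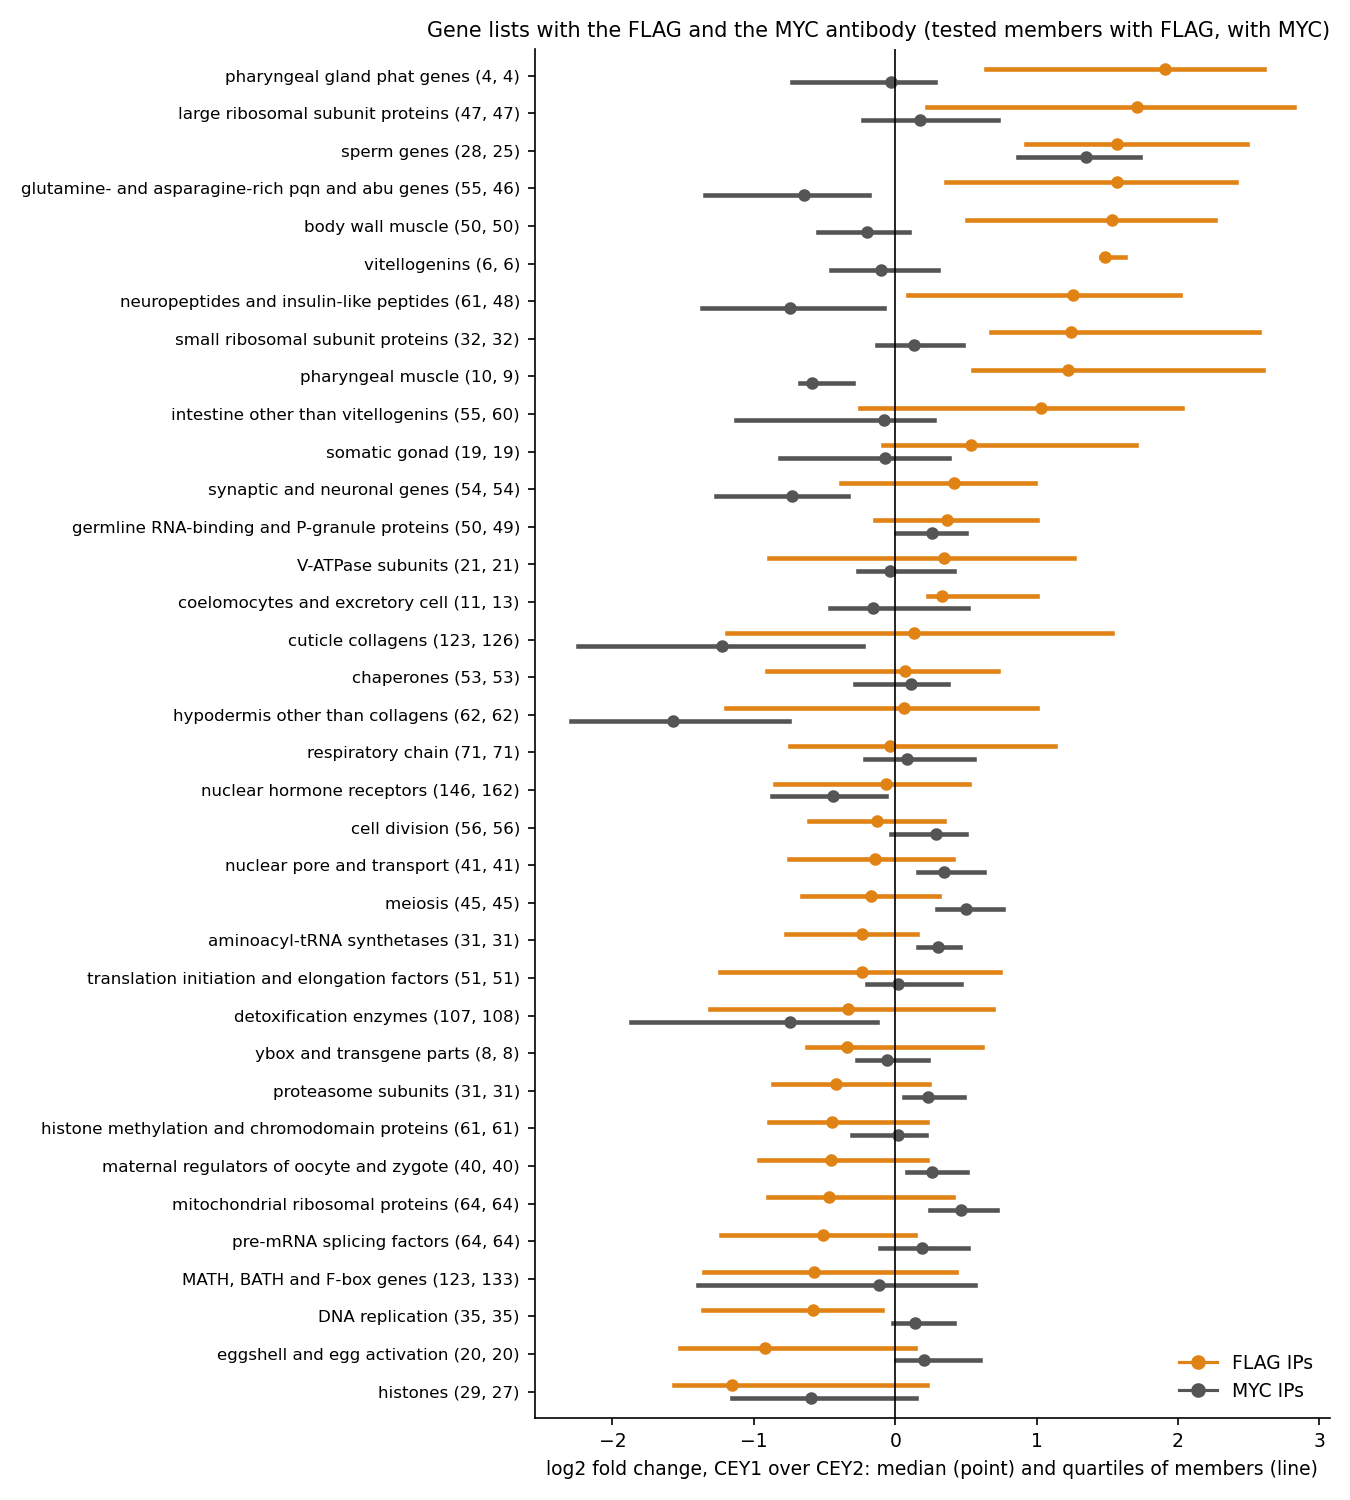
Median log2 fold change (CEY1 over CEY2, point) and range between the quartiles of the tested members (line) of each gene list, with the FLAG antibody in orange and the MYC antibody in grey. Muscle, intestine, pharynx, peptide and ribosomal protein lists have FLAG medians above 1 with MYC medians near or below 0. The sperm gene list is above 1 with both antibodies.

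Between single genes, the 12 largest differences toward CEY1 were taken among called genes of at least 10 CPM with a symbol other than a sequence name. They include cuticle, sperm, muscle and ribosomal protein mRNAs and the cytochrome c gene cyc-2.2. The collagen gene col-94 had 50.1 and 42.6 CPM with CEY1, against 0.225 and 0.139 CPM with CEY2 (7 and 5 counts with CEY2), a log2 fold change of 7.99 ± 0.17 (adjusted p = 8.06e-29). The collagen gene col-92, which may share reads with it, had 33.8 and 25.5 CPM with CEY1, against 0.354 and 0.556 CPM with CEY2 (6.0003 ± 0.18). Its neighbour in number, col-93, had 88.7 and 86.5 CPM with CEY1, against 2.48 and 3.14 CPM with CEY2 (4.95 ± 0.09). The collagen genes col-142, at 169 and 148 CPM with CEY1, against 5.19 and 6.003 CPM with CEY2 (4.82 ± 0.08), and col-159 (4.49 ± 0.07) followed. All 5 were also higher with CEY1 in the MYC IPs, at 4.32, 3.69, 2.72, 1.01 and 1.64. The actin gene act-1 had 18.4 and 19.96 CPM with CEY1, against 0.548 and 0.5002 CPM with CEY2 (5.18 ± 0.16), with a MYC value of 1.56, although actin genes are near-identical in sequence. The methionine sulfoxide reductase gene msra-1 stood at 39.0 and 38.8 CPM with CEY1, against 1.64 and 1.83 CPM with CEY2 (4.48 ± 0.11). Its MYC value was 4.01, and the difference between the antibodies in the 8-library fit, 0.10, was not called (adjusted p = 0.706). That fit has its own scaling, and its value lies below 4.48 minus 4.01.

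Of these 12 genes with the largest values, 10 were called higher with CEY1 in the MYC IPs too, rps-11 was not called there (0.10, adjusted p = 0.29), and rpl-11.2 was called lower. Their MYC median was 2.13, against 4.90 with FLAG. The collagen, sperm and reductase genes among them thus differed between the strains with both antibodies, and the 2 ribosomal protein genes were higher with CEY1 in the FLAG IPs only. The difference between the antibodies was called for both of these, at 4.38 for rps-11 (adjusted p = 2.81e-23) and 4.498 for rpl-11.2 (adjusted p = 2.26e-23).

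Of the 12 genes with the largest values toward CEY2, 9 were called lower with CEY1 in the MYC IPs too, 1 was called the opposite way and 2 neither way. By the size of the MYC difference they are described here as 2 kinds. In the first, the MYC IPs differed by a like amount. The infection response gene irg-4 had 0.753 and 0.327 CPM with CEY1, against 21.3 and 24.4 CPM with CEY2 (−5.34 ± 0.18), with a MYC value of −5.35. The acid sphingomyelinase gene asm-3 had 0.828 and 0.841 CPM with CEY1, against 12.7 and 12.2 CPM with CEY2 (−3.89 ± 0.17), with a MYC value of −4.22. The mRNA of pck-1, which encodes the gluconeogenic enzyme PEPCK, had 4.89 and 4.44 CPM with CEY1, against 39.6 and 38.4 CPM with CEY2 (−3.05 ± 0.10), with a MYC value of −3.23. Values of −4.07 and −3.63 for pud-4, and of −3.13 and −3.12 for dao-3, with FLAG and MYC in that order, were of this kind too. For irg-4, asm-3, dao-3 and pck-1 the difference between the antibodies was not called (adjusted p = 0.481, 0.952, 0.212 and 0.469).

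In the second kind, the MYC difference was under 1 in size on the log2 scale, a limit used for description only. Besides cey-2, this held for baf-1, whose protein joins chromatin to the nuclear envelope, at 2.26 and 1.96 CPM with CEY1, against 21.8 and 23.1 CPM with CEY2 (−3.40 ± 0.13) and a MYC value of −0.91. The presenilin gene sel-12 had 1.47 and 1.87 CPM with CEY1, against 13.3 and 13.5 CPM with CEY2 (−3.02 ± 0.15), with a MYC value of −0.19. The immunoglobulin domain gene zig-11 had 5.91 and 5.61 CPM with CEY1, against 45.995 and 46.02 CPM with CEY2 (−2.99 ± 0.09), with a MYC value of −0.32. The mRNA of nipa-1 had 7.23 and 7.99 CPM with CEY1, against 65.5 and 67.7 CPM with CEY2 (−3.14 ± 0.08), and that of pmlr-1 had 31.4 and 30.2 CPM with CEY1, against 224 and 211 CPM with CEY2 (−2.82 ± 0.05), with MYC values of −0.82 and −0.38. For baf-1, sel-12, zig-11, nipa-1 and pmlr-1 the difference between the antibodies was called, at −2.85, −3.19, −3.03, −2.68 and −2.80 (adjusted p = 4.63e-11 or less). The leucine-rich repeat gene pan-1 lay between the 2 kinds, with 3.20 and 2.90 CPM with CEY1, against 25.6 and 23.4 CPM with CEY2 (−2.996 ± 0.12) and a MYC value of −2.09.

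Among genes whose symbol is letters, a hyphen and a number, those with the most CPM and at least 2-fold higher with CEY1 were vit-6, vit-2, pab-1, rps-0, pqn-20, asp-6, the polyubiquitin gene ubq-1 and the Hsp70 gene hsp-1. The elongation factor gene eef-1A.1, whose symbol has another form, had more CPM than the last 4 of these. The polyubiquitin mRNA stood at 5120.5 and 5105 CPM with CEY1, against 672 and 752 CPM with CEY2 (2.84 ± 0.04), with a MYC value of 0.95. Among those at least 2-fold lower, the most CPM were in eel-1, ssl-1, emb-5, trr-1, arid-1, chs-1, sip-1 and snrp-200. The HECT ubiquitin ligase gene eel-1 had 3461 and 3238 CPM with CEY1, against 9117 and 9156 CPM with CEY2 (−1.45 ± 0.03, adjusted p = 3.21e-28). Of the 8, 4 encode large chromatin or transcription proteins. The SWI/SNF-type ATPase gene ssl-1 stood at 1546 and 1522 CPM with CEY1, against 3414 and 3246 CPM with CEY2 (−1.12 ± 0.03). The TRRAP homolog trr-1 had 1569 and 1512 CPM with CEY1, against 3082 and 3085 CPM with CEY2 (−1.001 ± 0.03). The mRNA of emb-5, the homolog of the elongation factor Spt6, had 1351 and 1325 CPM with CEY1, against 3251 and 3188 CPM with CEY2 (−1.27 ± 0.03). The ARID domain gene arid-1 had 1198 and 1185 CPM with CEY1, against 2739 and 2607 CPM with CEY2 (−1.17 ± 0.03). The small heat shock gene sip-1 had 1256 and 1222 CPM with CEY1, against 2479 and 2617 CPM with CEY2 (−1.04 ± 0.03). The MYC log2 fold changes of these 8 ran from −0.47 to 0.01, all smaller in size than the FLAG values.

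**Figure D5:**
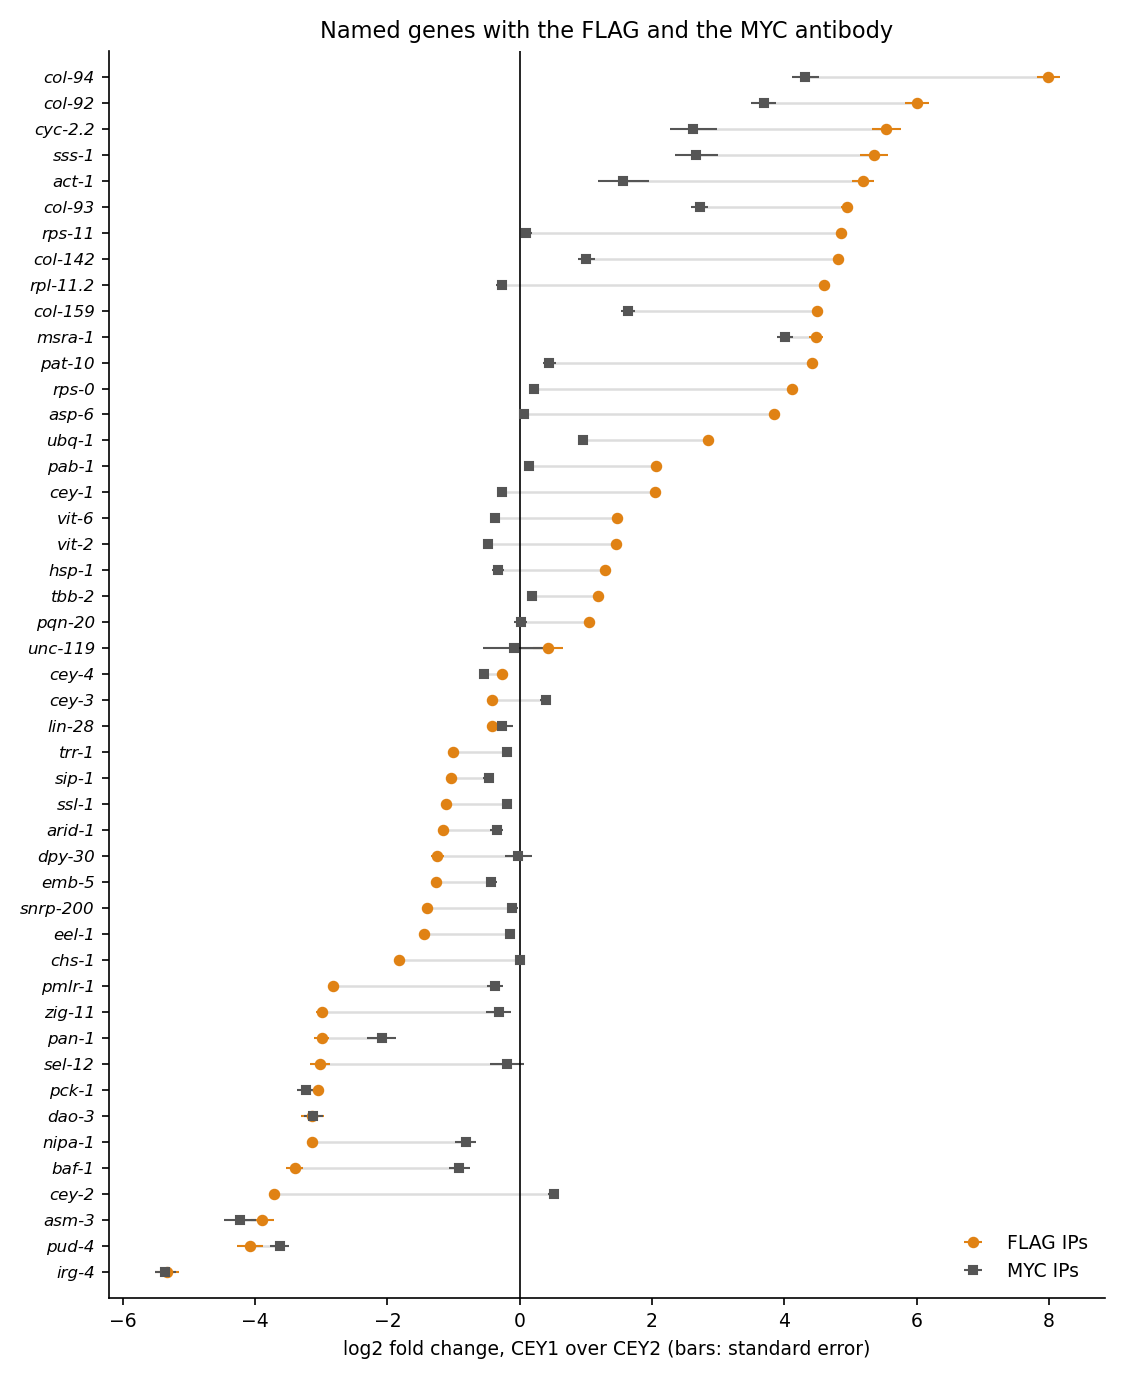
Log2 fold change (CEY1 over CEY2) with its standard error for 47 genes, in the FLAG IPs (orange circles) and the MYC IPs (grey squares), ordered by the FLAG value. For irg-4, dao-3 and pck-1 the symbols nearly coincide, whereas cey-2, rps-11, rpl-11.2 and asp-6 have MYC values near 0 or on the other side of it.

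Over all genes, the strain difference in the FLAG IPs was only partly like that in the MYC IPs. The MYC libraries were shallower, and the coefficient of variation edgeR estimated over all genes was 0.0310 with FLAG and 0.0746 with MYC. In the MYC IPs 6416 of 11515 tested genes (55.7%) were called, 3162 higher and 3254 lower, and 994 (8.63%) and 1893 (16.4%) at 2-fold or more. Of the 2827 genes at least 2-fold higher in the FLAG IPs, 2418 were tested with MYC, where 959 were called the same way, 437 the opposite way and 1022 neither way (median 0.28, against 1.76 with FLAG). Of the 2502 at least 2-fold lower, 2381 were tested, with 943 the same way, 348 the opposite way and 1090 neither (median −0.26, against −1.50). Across the 10853 genes tested with both antibodies the 2 log2 fold changes correlated with r of 0.420, a description over genes, which are not independent replicates. The interaction contrast, the FLAG difference minus the MYC difference, was called for 53.4% of 14117 genes, 2878 (20.4%) above and 4661 (33%) below 0. This imbalance depended on the fit, and its cause was not tested. It was smaller with DESeq2 size factors, where 3448 genes lay above and 4084 below 0. It was not seen when either CEY1 FLAG library was left out, which leaves 1 library in that group. Of the 32 lists with at least 10 tested members, 10 had a FLAG median above and a MYC median below 0, 13 the reverse, 5 were above 0 and 4 below 0 with both.

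The CEY4 FLAG libraries, scaled together with the other 4, fell between the 2 strains for most genes at least 2-fold apart. All 12 genes with the largest values toward CEY1 and 10 of the 12 toward CEY2 had a CEY4 mean between them. Among genes at least 2-fold higher with CEY1, the CEY4 mean lay between in 1995, above both in 453 and below both in 379. Among those at least 2-fold lower, it lay between in 1867, above both in 228 and below both in 407. Genes picked for a wide gap between CEY1 and CEY2 leave much room for another strain to fall inside it. No intermediate binding by CEY-4 is therefore read from these counts, and the share over all tested genes was not counted. For rps-11 the CEY4 libraries held 58.0 and 59.9 CPM, beside means of 1273 with CEY1 and 43.5 with CEY2. For asp-6 they held 962 and 973 CPM, beside 5902 with CEY1 and 406 with CEY2. For vit-6, CEY4 exceeded both, at 30651 and 31104 CPM beside 19505 with CEY1 and 6951 with CEY2. For cey-2 it lay between, at 463 and 468 CPM beside 136 with CEY1 and 1771 with CEY2. Ribosomal protein and protease mRNAs with CEY4 were in these cases nearer to the CEY2 level.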

How the data were processed

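RNA from FLAG and MYC IPs of whole young adult worms was eluted with Trizol, and libraries were prepared with ScriptSeq v2, per the labels' protocols. The deposited table gives the authors' raw counts of each gene and library. It holds 20182 genes, 18778 of them (93%) with a symbol matched by identifier. How reads were aligned and assigned to genes, and on which genome build, is not given in the sources used here. Each strain and antibody gave 2 libraries, and 1 CPM stood for 21.4 to 35.98 counts in the FLAG and 3.39 to 6.56 in the MYC libraries of CEY1 and CEY2. Reads amplified by PCR without molecular identifiers are not independent, and depth covers counting error only.

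The analysis used edgeR 4.0.16 (R 4.3.3) with filterByExpr by group (minimum count 10), TMM scaling and quasi-likelihood F tests (two-sided, Benjamini-Hochberg adjusted p under 0.05). The FLAG comparison was fitted on its 4 libraries. The 4 MYC libraries of CEY1 and CEY2 were fitted apart, and FLAG and MYC CPM are not on one scale. The FLAG minus MYC difference came from a fit of those 8 libraries with their own scaling, so it is not the exact difference of the 2 values. For all 7 genes flagged for a closer look it lay below the FLAG value minus the MYC value. For vit-2 it was 1.56, beside 1.45 with FLAG and −0.48 with MYC. Standard errors are derived from the F statistic. On simulated data for this comparison (11325 genes), 99 tested genes were changed by 1.5-fold and 99 by 4-fold. The test recovered 66.7% and 99.0% of these, with 5 false calls (2.96% of its calls). Counts were drawn from the fitted spread, and far fewer genes changed than were called in the FLAG IPs. The simulation therefore gives no rate of false calls for the 9438 called genes.

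Genes were named by a rule. In each direction it takes the 12 largest called differences at 10 CPM or more with non-overlapping libraries (histones and major sperm proteins left out) and the 8 called at 2-fold or more with the most CPM. Both take only symbols of letters, a hyphen and a number, with or without a suffix after a point, which leaves out sequence names and forms such as eef-1A.1. It adds all Y-box and transgene genes and, in each of 37 lists, up to 4 called members with the lowest adjusted p and up to 2 called the other way. Tissue markers were added. The comparison and the lists were chosen with earlier results of these data known. Chromosome, protein length and amino acid content of the genes were not analysed here. Alternatives were DESeq2 1.42.0, other scalings, filters, sets of libraries, a replicate block and leaving out each library.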

Additional observations from a re-analysis of the deposited data

Results flagged for a closer look

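Of the 47 genes with the largest differences, the most counts or a place in the Y-box and transgene list, 7 were called in opposite directions with the FLAG and the MYC antibody, and for each the test of the difference between the antibodies (edgeR, 8 libraries) was called. The FLAG minus MYC difference of log2 fold changes (CEY1 over CEY2) was 1.95 for cey-1 (adjusted p = 6.85e-16), −4.60 for cey-2 (adjusted p = 2.26e-23) and −1.17 for cey-3 (adjusted p = 2.75e-11). It was 4.498 for the ribosomal protein gene rpl-11.2 (adjusted p = 2.26e-23). For the yolk protein genes it was 1.48 for vit-6 (adjusted p = 9.5e-15) and 1.56 for vit-2 (adjusted p = 2.49e-15). For the Hsp70 gene hsp-1 it was 1.25 (adjusted p = 3.52e-10). For cey-3 the FLAG and MYC values were of like size and opposite sign (−0.42 and 0.39). The MYC call of 3 of these genes was lost when a CEY2 MYC library was left out, which leaves 1 library in that group. It was lost for cey-1 without replicate 2, and for rpl-11.2 and hsp-1 without replicate 1. With each MYC library left out in turn, their MYC values kept their sign. The ranges were −0.33 to −0.20 for cey-1, −0.31 to −0.22 for rpl-11.2 and −0.50 to −0.16 for hsp-1.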

How the results depend on the processing

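The 4618 higher and 4820 lower calls numbered 4042 and 4078 with DESeq2, 4695 and 4745 with its size factors in edgeR, 4862 and 5015 without a filter, 4764 and 4803 with 6 FLAG libraries, and 4539 and 4748 with all 12 libraries. Leaving out each library gave 4330 to 4518 higher and 4456 to 4703 lower calls. With total-count scaling 3997 and 5550 were called, 2359 and 3151 of them at 2-fold or more, and the median over all genes shifted by −0.20. A test against a 1.5-fold change, which asks for more, called 3273 higher and 3135 lower. A filter of 100 counts tested fewer genes, 7397, and left 1640 higher and 1420 lower at 2-fold or more. Replicate numbers were shared only as labels, and a replicate block gave 4581 higher and 4764 lower calls. Deviations of same-numbered libraries had r of −0.180 over 5862 genes, and a crossed replicate block, chosen after seeing the data, gave 4670 and 4871. Of 238 named genes, 223 kept their direction and call under every FLAG alternative that tested them, and 13 of the other 15 lost the call against 1.5-fold. Most named genes were picked for large or strongly called differences in these same libraries, so this share does not speak for other called genes. The share over all called genes was not counted. With DESeq2 size factors, also added after seeing the data, the FLAG minus MYC contrast was called above 0 for 3448 and below 0 for 4084 genes.

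Medians of 3 mixed lists changed sign, and the cause was not tested. For cuticle collagens the median was 0.13, but −0.0723 with total-count scaling and −0.33 with 12 libraries. For the hypodermis it was 0.06, but −0.14 and −0.24 in those fits, and −0.337 to −0.0562 with a library left out. For chaperones it was 0.07, but −0.13 with total-count scaling, and −0.0156 to 0.119 with a library left out.

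Leaving out single MYC libraries, added after seeing the data, turned MYC differences that were not called. Their ranges were −0.20 to 0.22 for pqn-20, −0.0239 to 0.165 for asp-6, −0.000114 to 0.0313 for chs-1, −0.22 to 0.00978 for snrp-200, −0.49 to 0.00411 for lin-28, −0.41 to 0.24 for unc-119 and −0.48 to 0.38 for dpy-30.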
